A study of Mus musculus with 15 samples.

Results

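The genes described here mark 2 epithelial features: the mesothelium, the sheet of cells that lines the body cavities and the organs within them, and the simple keratins, the intermediate filament proteins of single-layered epithelia. The list of 8 genes was Msln, Lrrn4, Upk3b, Wt1, Krt7, Krt8, Krt18 and Krt19. They were chosen by name with earlier results of these libraries known, so their differences between groups are a description and carry no test. By symbol, 7 of the 8 were found among the 14091 features of the count table, and Krt8 was not analysed here. The cells were embryonic fibroblasts of ICR mice, profiled by RNA-seq in 3 groups of 5 libraries. The group named MEF, for mouse embryonic fibroblast, is the reference. The MGT group received retrovirus for the cardiac transcription factors Mef2c, Gata4 and Tbx5, and the MΔGΔT group received the version of this mix that carries the Δ symbol, which the labels do not define. Transduced cells were collected after 1 week, and no collection time is given for the MEF libraries. All 3 groups share the ICR strain and the fibroblast source, and the labels name no vector-only group. Transduction itself and the factors therefore cannot be told apart. Time in culture may also differ between MEF and the transduced groups, and it cannot be told apart from them either. Nor do the labels tell whether replicates came from separate cultures, and p-values therefore measure the spread between these libraries, which may be technical.

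The mesothelium arises from embryonic mesoderm and covers the heart as the epicardium. Its cells keep an epithelial shape and make keratins, yet they can lose contact and give rise to fibroblasts, a change in which the transcription factor Wt1 takes part. Msln encodes mesothelin, a surface protein held by a lipid anchor that binds the mucin Muc16. Upk3b encodes a uroplakin, a membrane protein of the urothelium that mesothelial cells also make, and Lrrn4 encodes a neuronal leucine-rich repeat membrane protein that is used as a mesothelial marker. Keratins assemble only as pairs of a type I and a type II chain. Krt18 and Krt19 are type I chains and Krt7 and Krt8 are type II chains, and desmosomes anchor the resulting filaments to the cell surface through desmoplakin.

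Wt1 and Lrrn4 share a chromosome, as do Krt7, Krt8 and Krt18. In the GENCODE M21 annotation of GRCm38, Msln lies at chr17:25748613-25754378 on the minus strand, Lrrn4 at chr2:132868305-132880891 on the minus strand, Upk3b at chr5:136038496-136046487 on the plus strand and Wt1 at chr2:105126529-105173616 on the plus strand. Krt7 lies at chr15:101411043-101430313 and Krt18 at chr15:102028180-102032027, both on the plus strand, and Krt19 at chr11:100140810-100148665 on the minus strand. Krt8 and Krt18 are neighbours at a distance of 23.7 kb. Krt7 overlaps the antisense gene Gm671 over chr15:101411043-101412311, at the start of its span. Whether counting used strand is not given in the sources used here, so reads within that stretch cannot be assigned to either gene.

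Lrrn4 and Upk3b were the 2 members that were lower by more than 2 on the log2 scale in both transduced groups, and the 250 bases before their RefSeq starts are shown for that reason. The sequences are those of RefSeq for GRCm38.p6, read 5′ to 3′ on the strand of the gene, from chr2:132880863-132881112 (minus strand) and chr5:136038246-136038495 (plus strand). For Upk3b this start is also the first base of the GENCODE gene given above. The RefSeq start of Lrrn4 lies inside its GENCODE span, so the end of the window nearest the start falls within that span. Capitals mark the letters GGAATG on either strand, the core of the binding motif of TEAD factors, which act with the YAP co-activator.
Lrrn4: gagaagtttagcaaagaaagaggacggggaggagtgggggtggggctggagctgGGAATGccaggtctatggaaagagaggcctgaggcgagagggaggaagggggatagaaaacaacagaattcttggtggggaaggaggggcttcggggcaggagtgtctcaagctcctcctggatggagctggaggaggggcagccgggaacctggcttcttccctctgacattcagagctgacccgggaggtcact
Upk3b: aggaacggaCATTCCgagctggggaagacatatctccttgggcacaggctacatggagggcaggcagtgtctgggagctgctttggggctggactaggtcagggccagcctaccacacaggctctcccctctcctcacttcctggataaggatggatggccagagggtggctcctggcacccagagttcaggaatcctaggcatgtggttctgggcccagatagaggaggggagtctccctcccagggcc
The match lay 196 to 191 bases before the RefSeq start of Lrrn4 on its own strand and 241 to 236 bases before that of Upk3b on the other strand. Of all 32851 RefSeq promoter windows of this length, 12.6% held these letters, so a match is common. The other motifs searched on both strands were not found in either window. The GATA factor motif AGATAA was held by 9.99% of all windows. The T-box motif GGTGTG was held by 16.3%, and the SP and KLF motif GGGCGG by 32.7%. The TATA box, TATAAA, was held by 12.4%, and the MEF2 motif by 1.69%. The window of Krt7 held 1 T-box match and 4 SP and KLF matches, that of Krt8 held 1 GATA match, and that of Krt18 held none of these letters. These 3 windows, also set by RefSeq starts, lie wholly (Krt7) or partly (Krt8, Krt18) inside the GENCODE spans. A match is a description of letters and not a binding site.

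Total counts ran from 8.213 M to 11.13 M per library. The transduced factors followed the labels. Mef2c was at 57.9 to 60.9 counts per mega-count (CPM, of the composition-adjusted library size) in MEF, at 533 to 638 CPM in MGT and at 591 to 647 CPM in MΔGΔT. Gata4 was at 1.92 to 3.13 CPM in MEF and at 138 to 168 and 187 to 196 CPM in MGT and MΔGΔT, and Tbx5 at 3.74 to 5.36 CPM in MEF and at 117 to 137 and 170 to 181 CPM. Reads from the viral copies and the cell's own copies of these genes cannot be separated in the table. MEF replicate 1 stood apart from the rest of its group, with a chi-square per degree of freedom of 4.5 to 7.13 against the other MEF libraries, where all other pairs within a group lay between 1.59 and 3.9. Without that library no member's log2 fold change against MEF moved by more than 0.09.

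Msln had the highest deposited RPKM (reads per kilobase and mega-read) of the 7 members in both transduced groups. In CPM it stood at 5.46, 5.66, 4.26, 4.23 and 4.24 CPM in MEF replicates 1 to 5, at 16.4, 21.1, 21.8, 15.6 and 16.7 CPM in MGT, and at 88.6, 81.7, 92.8, 94.2 and 78 CPM in MΔGΔT. The 3 groups did not overlap at any point, and each step up was larger than the whole range of the group before it. The log2 fold change was 1.92 ± 0.12 (SE) for MGT against MEF, 4.17 ± 0.0993 for MΔGΔT against MEF and 2.25 ± 0.0753 for MΔGΔT against MGT. The SE of each fold change was its absolute log2 value over the square root of F from the fit to all 15 libraries. Where a large change rests on few reads, as for Lrrn4 and Muc16 below, this SE is smaller than counting error allows. In these bulk samples more cells of a type and more RNA per cell cannot be told apart, for Msln or for any gene below.

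Lrrn4 was lower in the transduced cells, to a few reads per library. Its counts were 71, 67, 44, 78 and 70 in MEF, 8, 4, 4, 3 and 4 in MGT, and 1, 1, 2, 3 and 1 in MΔGΔT. Every MEF library lay above every transduced library, while MGT and MΔGΔT overlapped at 3 counts. The mean level was 7.15 ± 1.66 CPM (SD, n = 5) in MEF, 0.416 ± 0.158 CPM in MGT and 0.166 ± 0.0880 CPM in MΔGΔT. This gave log2 fold changes of -4.05 ± 0.24 and -5.31 ± 0.30 against MEF. The difference of MΔGΔT from MGT, -1.26 ± 0.55, rests on 8 against 23 reads over 5 libraries each. On the scale of log2(RPKM + 0.1), which understates differences of low genes, the 3 values were -2.93, -3.41 and -0.48.

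Upk3b had a similar contrast to MEF without a step between the transduced groups. Its levels were 6.37, 8.44, 6.16, 10 and 8.93 CPM in MEF, 0.593, 0.386, 1.68, 0.85 and 1.84 CPM in MGT, and 0.666, 1.31, 0.927, 0.91 and 0.981 CPM in MΔGΔT. MEF overlapped neither transduced group, and the MΔGΔT libraries all lay within the range of the MGT libraries. The log2 fold changes were -2.90 ± 0.23 for MGT and -3.03 ± 0.24 for MΔGΔT against MEF. Between the transduced groups the value was -0.13 ± 0.35, and its sign turned without MGT replicate 3 (0.11) or MGT replicate 5 (0.12). No direction is given for it.

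Wt1, the zinc finger transcription factor of mesothelium, kidney and gonad, was highest in MGT. It stood at 5.76, 3.07, 4.26, 5.8 and 7.37 CPM in MEF, at 11.3, 11.9, 11.9, 10.1 and 9.08 CPM in MGT, and at 2.55, 3.93, 3.3, 5.46 and 3.38 CPM in MΔGΔT. The MGT libraries lay above all others, while 4 of the 5 MΔGΔT libraries fell within the MEF range. The log2 fold change was 1.06 ± 0.16 for MGT against MEF and -1.53 ± 0.17 for MΔGΔT against MGT. For MΔGΔT against MEF it was -0.47 ± 0.20, between groups that overlap, and this value was -0.32 without MEF replicate 5.

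**Figure D1:**
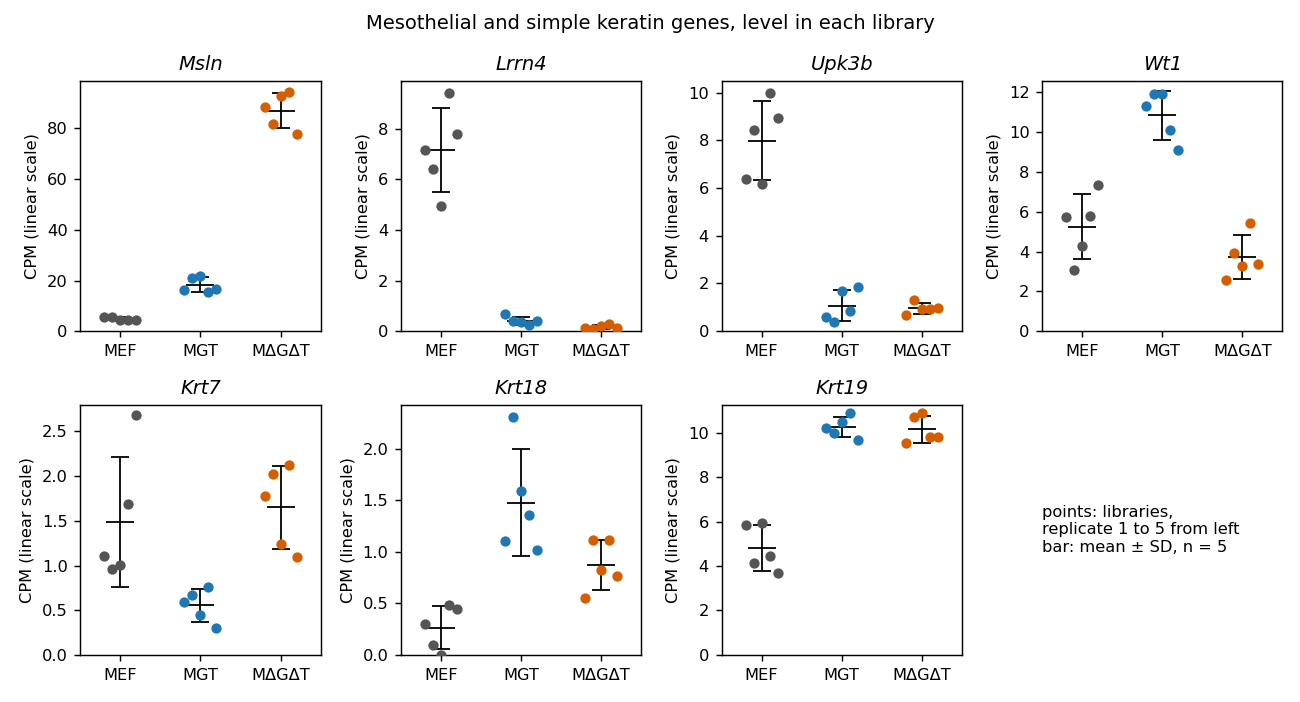
Level of each of the 7 genes in every library, in CPM on a linear axis that starts at 0, for MEF, MGT and MΔGΔT. Points are libraries in replicate order and bars give mean ± SD (n = 5). Msln steps up from 4.77 to 18.3 and 87.1 CPM on average, Lrrn4 and Upk3b are near 0 to 2 CPM in both transduced groups, and Wt1 is highest in MGT.

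Of the keratins, Krt19 was the best counted. It stood at 5.87, 4.12, 5.94, 4.47 and 3.68 CPM in MEF, at 10.2, 10, 10.5, 10.9 and 9.69 CPM in MGT, and at 9.55, 10.7, 10.9, 9.81 and 9.81 CPM in MΔGΔT. Both transduced groups lay above MEF and overlapped each other. The log2 fold changes against MEF were 1.09 ± 0.12 and 1.08 ± 0.12. The value for MΔGΔT against MGT was -0.02 ± 0.1, of which the sign turned without MGT replicate 4, MΔGΔT replicate 1 or MΔGΔT replicate 4.

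Krt18 was counted sparsely. Its counts were 3, 1, 0, 4 and 4 in MEF, 13, 24, 18, 16 and 10 in MGT, and 5, 11, 8, 11 and 7 in MΔGΔT. All MEF libraries lay below all transduced libraries, and the 2 transduced groups overlapped. The log2 fold change against MEF was 2.45 ± 0.41 in MGT and 1.72 ± 0.47 in MΔGΔT, and between the transduced groups it was -0.73 ± 0.31. On log2(RPKM + 0.1) the value of MΔGΔT against MEF was 1.10. Processed pseudogenes of Krt18 exist in mammals, and how reads shared with such copies were counted is not given in the sources used here, so its level is uncertain.

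Krt7 was lower in MGT than in both other groups. Its counts were 11, 10, 9, 14 and 24 in MEF, 7, 7, 5, 9 and 3 in MGT, and 16, 20, 12, 21 and 10 in MΔGΔT. In CPM the highest MGT library (0.765) lay below the lowest MEF library (0.959) and the lowest MΔGΔT library (1.09), while MEF and MΔGΔT overlapped. The log2 fold change was -1.36 ± 0.34 for MGT against MEF and 1.54 ± 0.33 for MΔGΔT against MGT. On the scale of log2(RPKM + 0.1) these were -0.61 and 0.61. The value of MΔGΔT against MEF, 0.17 ± 0.28, was 0.49 without MEF replicate 5 and -0.0014 on the RPKM scale, so no direction is given for it.

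Over the 7 members, MGT exceeded MEF for 4 and lay below it for 3, and the same counts held for MΔGΔT against MEF, where the direction of Krt7 rests on the scale. Against MGT, 2 were higher by value in MΔGΔT and 5 lower, with the signs of Upk3b and Krt19 unstable. The 2 comparisons share the MEF libraries. The 5 and 5 libraries did not overlap for 7 of 7 genes in MGT against MEF, 5 of 7 in MΔGΔT against MEF, with Wt1 and Krt7 the exceptions, and 3 of 7 in MΔGΔT against MGT, namely Msln, Wt1 and Krt7. Over all 13328 tested features the share without overlap was 45.8%, 58.5% and 45.3% in the same order. Since the genes were chosen with these contrasts known, nothing is read from the count. The median log2 fold change of the 7 was 1.06, 0.17 and -0.13, where that over all features was 0.0039, -0.01 and 0.01.

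**Figure D2:**
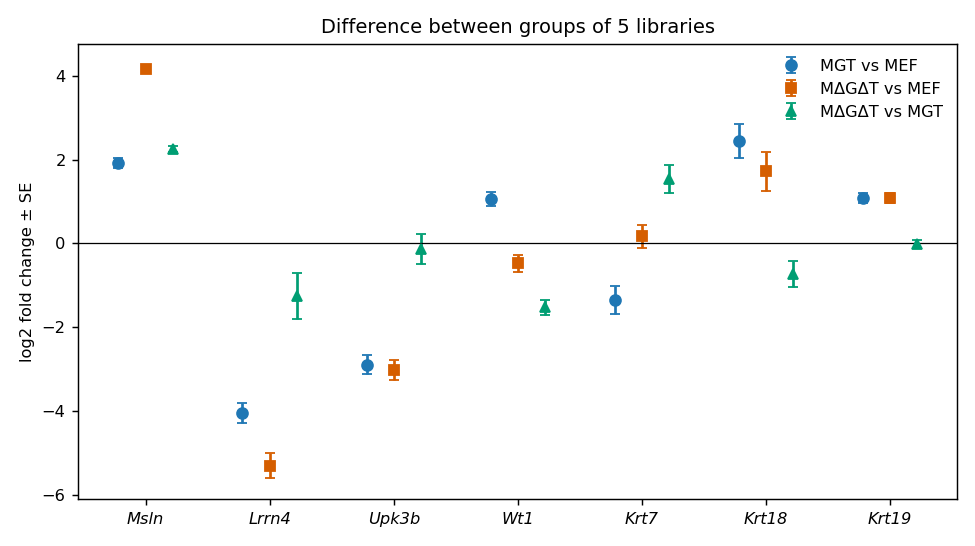
Log2 fold change ± SE of each gene in the 3 comparisons of 5 with 5 libraries, from the fit to all 15 libraries. Msln and Lrrn4 lie farthest from 0 in opposite directions, at 4.17 and -5.31 for MΔGΔT against MEF, and Upk3b and Krt19 lie at 0 within their SE for MΔGΔT against MGT.

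The order of the genes by level changed between groups. The order is that of the deposited RPKM (reads per kilobase and mega-read). The lengths used for it are not known here, so levels between genes hold for the deposited values only. The MEF means were 1.68 ± 0.381 for Krt19, 1.46 ± 0.327 for Upk3b, 1.46 ± 0.203 for Msln and 1.24 ± 0.309 for Lrrn4. These are 4 genes whose neighbours in the order overlapped. Wt1 followed at 0.546 ± 0.159 RPKM, and Krt7 (0.136 ± 0.0594) and Krt18 (0.122 ± 0.0996) overlapped at the end. In MGT, Msln (5.66 ± 0.925 RPKM) lay above Krt19 (3.62 ± 0.184), and both lay above Wt1 (1.14 ± 0.133) and Krt18 (0.692 ± 0.265), which overlapped. Upk3b, Lrrn4 and Krt7 ended this order at 0.196, 0.074 and 0.052 RPKM, with overlap between neighbours. In MΔGΔT, Msln (22.5 ± 1.36 RPKM) and Krt19 (3 ± 0.235) stood clear of the rest, Krt18 (0.34) overlapped Wt1 (0.328), Upk3b (0.148) overlapped Krt7 (0.132), and Lrrn4 was last at 0.024 RPKM.

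Ratios within a library show the same separation of Msln from Upk3b, 2 markers used for the same cell type. The RPKM ratio of Msln to Upk3b had a median of 1.12 in MEF (0.705 to 1.43), 30.5 in MGT (15.1 to 97.3) and 163 in MΔGΔT (106 to 226). The ratio of Krt19 to Krt18, both type I chains, had a median of 6.08 in MGT (3.26 to 7.23) and 9.74 in MΔGΔT (6.71 to 13.2). In MEF it was 10.7 (6.1 to 35.5) over the 4 libraries with a Krt18 read, the other library being at 0. The ratio of Krt19 to the type II chain Krt7 had a median of 15.8 in MEF (5.3 to 21.3), 70.4 in MGT (52.6 to 113) and 19.9 in MΔGΔT (17.2 to 32.7), so the MGT libraries lay apart from both other groups.

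The spread among replicates differed between the genes. In MEF the coefficient of variation of the CPM was 15.2% for Msln, where counting error alone gives 14.9%. It was 31.3% for Wt1 against 14.4% from counting, 48.8% for Krt7 against 27.1%, 23.3% for Lrrn4 against 12.3% and 21% for Upk3b against 11.6%. Msln exceeded counting error in the transduced groups, at 15.8% against 7.05% in MGT and 8.07% against 3.47% in MΔGΔT. In MGT, Upk3b varied most, at 61% against 29.4%, while Krt19 varied by 4.49% in MGT and 5.99% in MΔGΔT, below the counting value of its mean. The MEF libraries ranked in the same order for Wt1 and Krt7 (replicates 5, 4, 1, 3, 2) and in the same order for Lrrn4 and Krt18 (4, 5, 1, 2, 3), and Upk3b shared the first 2 places and the last with the latter (4, 5, 2, 1, 3). For Msln the order was 2, 1, 3, 5, 4. Over the deviations of 15 libraries from their group means, Pearson's r was 0.754 between Wt1 and Krt18, 0.639 between Wt1 and Krt7 and 0.628 between Krt7 and Krt18. It was -0.00572 between Lrrn4 and Upk3b and between -0.25 and 0.143 for Msln with the other 6 genes. These are descriptions over shared libraries with few reads per gene.

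**Figure D3:**
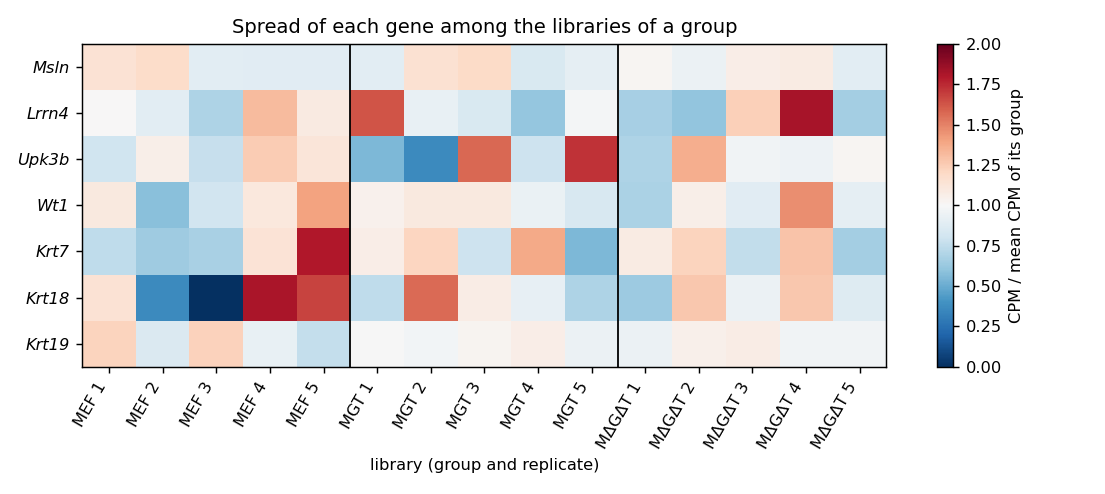
CPM of each gene in each library divided by the mean CPM of its group, on a colour scale from 0 to 2, with replicates 1 to 5 of MEF, MGT and MΔGΔT from left to right. In MEF, replicates 4 and 5 are above the group mean for Lrrn4, Upk3b, Wt1, Krt7 and Krt18 and below it for Msln and Krt19.

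The remaining mesothelial markers, from a list put together with earlier results of these data known, also split. Of 20 listed, 16 could be tested across all features by edgeR's quasi-likelihood test with Benjamini-Hochberg adjustment. Against MEF, 5 rose and 11 fell in MGT, and 7 rose and 9 fell in MΔGΔT. Over all features, 30.9% rose and 30.3% fell in MGT, together 61.2%, and 36.2% rose and 36.1% fell in MΔGΔT, together 72.3%. The median log2 fold change of the list was -0.83 in MGT and -0.96 in MΔGΔT. The summed level of the 17 found in the table went the other way. It was 581 to 620 CPM in MEF, 1099 to 1190 in MGT and 1244 to 1292 in MΔGΔT. Efemp1, named after its values were seen, had means of 75.4, 455 and 432 CPM in these groups. Between the transduced groups 5 rose in MΔGΔT, 5 fell and 6 were not called, where 30.4% of all features rose and 27.8% fell, together 58.2%.

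Among those that fell was Muc16, the mucin that mesothelin binds, while Msln itself was higher by value. Muc16 had 13 to 26 reads per library in MEF, 0 to 4 in MGT and 1 to 5 in MΔGΔT. Its log2 fold changes were -3.45 ± 0.388 (adjusted p = 4.5e-10) and -2.47 ± 0.348 (adjusted p = 5.4e-08). Muc16 passed the count filter only through MEF, where it was high. A fall was thus favoured by the filter, and these p-values are not read as support. Lrrn4cl, a gene named for its likeness to Lrrn4, had a mean of 46.1 ± 4.15 CPM in MEF, 7.26 ± 1.03 in MGT and 4.8 ± 0.806 in MΔGΔT. It fell by 2.66 and by 3.26 on the log2 scale (adjusted p = 2.1e-26 and 4.8e-28). Lrrn2, a paralogue of Lrrn4 that is not in the mesothelial list, fell by 2.22 and by 1.97 (adjusted p = 1.0e-15 and 2.3e-14). Lrrn1, the other paralogue tested, was not called in MGT (0.0043 ± 0.224, adjusted p = 0.99). It fell by 0.72 in MΔGΔT (adjusted p = 0.0179), a call lost without MEF replicate 1 (adjusted p = 0.0547). Pdpn, the membrane glycoprotein podoplanin, fell by 0.20 in MGT and by 1.07 in MΔGΔT (adjusted p = 5.3e-04 and 1.6e-20).

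Upk1b, the one other uroplakin that could be tested, followed neither Upk3b nor a single direction. Its mean was 4.28 ± 0.787 CPM in MEF, 2.4 ± 0.27 in MGT and 30.9 ± 2.78 in MΔGΔT. It fell by 0.82 in MGT (adjusted p = 3.6e-05) and rose by 2.86 in MΔGΔT (adjusted p = 2.1e-25), and the 2 transduced groups differed by 3.68 ± 0.11 (adjusted p = 2.1e-27). Cd200, a surface glycoprotein of the immunoglobulin family, also fell in MGT (-0.83 ± 0.0996) and rose in MΔGΔT (1.07 ± 0.0812). Of those that rose in both, Ildr2 went from 26.7 ± 2.74 CPM in MEF to 183 ± 6.68 in MGT and 222 ± 4.58 in MΔGΔT, and Sulf1, a sulfatase that edits heparan sulfate, rose by 0.45 and 0.75 on the log2 scale.

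Transcription factors and enzymes of the epicardium, the mesothelium of the heart, were called in both directions. Of 12 tested, 4 rose, 5 fell and 3 were not called in MGT, where 30.9% of all features rose and 30.3% fell. In MΔGΔT 5 rose and 7 fell, where 36.2% and 36.1% did. Of the calls in MΔGΔT, the rise of Scx (adjusted p = 0.0399) was lost in 11 of 22 alternative settings. The fall of Hand2 (adjusted p = 0.0472) was lost in 9 of 22. Both are named here after their values were seen. Against MGT, 1 rose in MΔGΔT, 6 fell and 5 were not called, beside 30.4% and 27.8% of all features, with a median of -0.33. The counts in MGT are near the shares over all features and are not a result about the list. Aldh1a2, the retinoic acid synthesis enzyme of the epicardium, was highest in MGT, as Wt1 was, with means of 8.31 ± 1.72 CPM in MEF, 33 ± 1.7 in MGT and 12.2 ± 0.976 in MΔGΔT. It rose 4.01-fold in MGT (adjusted p = 6.6e-22) and by 0.57 ± 0.108 on the log2 scale in MΔGΔT (adjusted p = 1.4e-05), and was lower in MΔGΔT than in MGT (-1.44 ± 0.0828, adjusted p = 3.9e-18). Tbx20, a T-box factor of the heart, had means of 0.978, 9.14 and 4.46 CPM in the 3 groups. Sema3d, a secreted guidance cue, rose by 1.03 and 0.86 on the log2 scale.

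In the wider retinoic acid pathway 12 genes were tested. In MGT 4 rose, 4 fell and 4 were not called, near the 30.9% and 30.3% of all features. The fall of Aldh1a1 in MGT (adjusted p = 0.0423), named after its values were seen, was lost in 8 of 22 alternative settings. In MΔGΔT 2 rose, 8 fell and 2 were not called, beside 36.2% and 36.1% of all features. Against MGT, 10 of the 12 fell in MΔGΔT and 1 rose, beside 27.8% and 30.4% of all features, with a median of -0.56. Rdh10, which makes retinal from retinol, rose by 1.62 in MGT and by 1.35 in MΔGΔT. Cyp26b1, which breaks retinoic acid down, rose by 0.42 and 1.31.

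Of 14 tested partners and targets of WT1, 4 rose and 6 fell in MGT, 5 rose and 8 fell in MΔGΔT, and 6 rose and 5 fell in MΔGΔT against MGT. Over all features 61.2%, 72.3% and 58.2% were called in these comparisons, and the counts are not read as a result about the list. Basp1, a co-repressor that binds WT1, had means of 245 ± 16.7, 107 ± 7.55 and 104 ± 5.86 CPM and fell by 1.20 and by 1.24. Pawr, another WT1-binding protein, rose by 1.13 and 1.57. Spry1, an inhibitor of receptor tyrosine kinase signalling, fell by 0.82 and by 1.48, and Igf1r, the receptor for insulin-like growth factor 1, rose by 0.74 and 1.43.

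**Figure D4:**
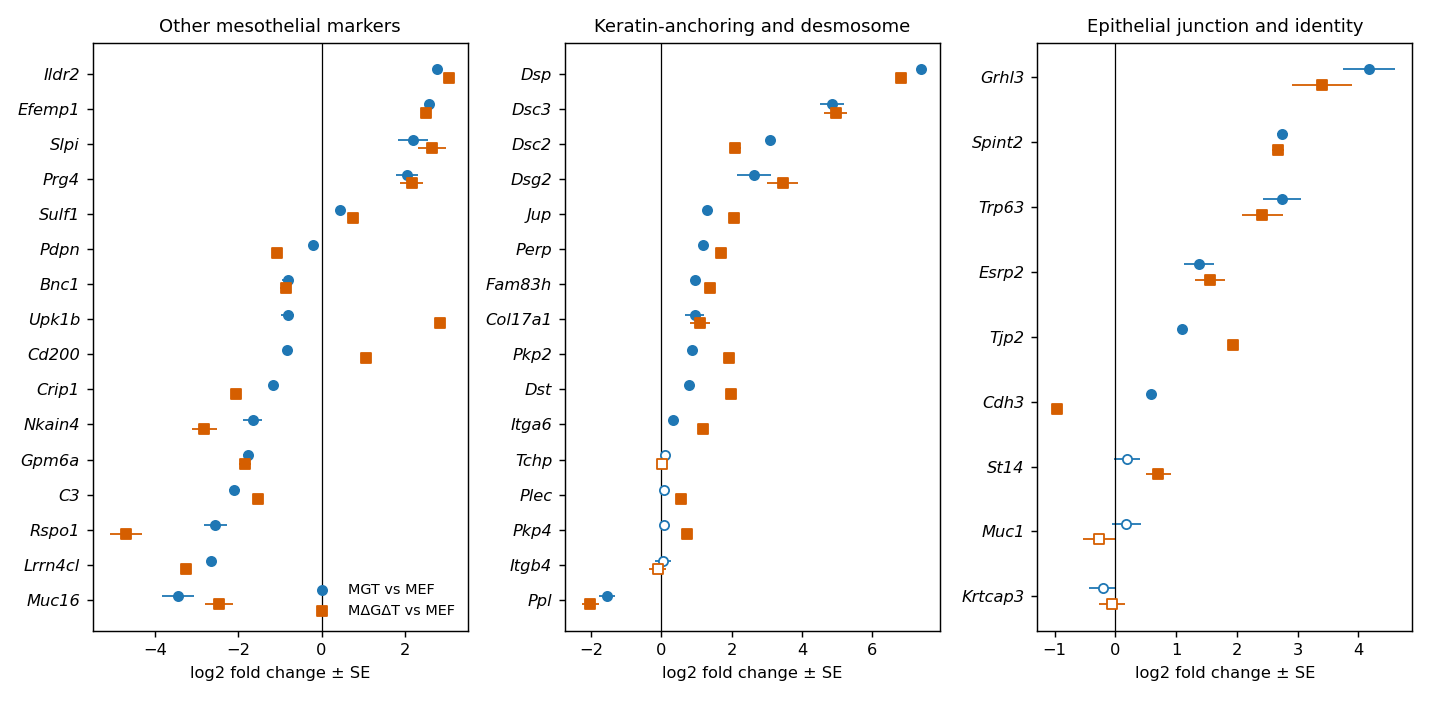
Log2 fold change ± SE against MEF for the tested genes of 3 lists, other mesothelial markers, keratin-anchoring and desmosome genes, and epithelial junction and identity genes. Circles are MGT and squares MΔGΔT, filled where the adjusted p of edgeR's quasi-likelihood test was under 0.05. The mesothelial markers lie on both sides of 0, whereas 11 of 16 keratin-anchoring and desmosome genes in MGT and 13 of 16 in MΔGΔT lie above 0 as called genes.

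The other keratins were few. Of 38 listed, 6 were found in the table and 3 could be tested. Krt20, a type I keratin of gut and urothelium, had means of 0.389 ± 0.0981 CPM in MEF, 6.5 ± 0.694 in MGT and 7.6 ± 0.462 in MΔGΔT, and rose by 4.03 ± 0.213 (adjusted p = 1.4e-19) and 4.25 ± 0.21 (adjusted p = 9.2e-21). In RPKM it stood at 2.2 ± 0.248 in MGT and 2.16 ± 0.153 in MΔGΔT, next below Krt19 among the keratins found. Krt10, a type I keratin of the upper epidermis, was not called in any comparison. Krt80, a type II keratin, rose in MΔGΔT against MEF (0.86 ± 0.324, adjusted p = 0.0177), a call lost without MEF replicate 2, MEF replicate 5 or MΔGΔT replicate 4, with adjusted p up to 0.0808. Its fall in MGT (-0.93 ± 0.412, adjusted p = 0.0499) lost its call in 17 of 21 alternative settings, where the adjusted p ran from 0.0177 to 0.343, and its rise in MΔGΔT against MGT was 1.78 ± 0.358 (adjusted p = 4.8e-05). Krt20 (3 to 5 reads per MEF library) passed the count filter only through the transduced groups, and Krt80 only with its MΔGΔT libraries. In those groups each was high, so their rises were favoured by the filter. The p-values of these rises are not read as support. Below the count filter were Krt13, Krt15 and Krt23, named here after their values were seen. Krt13 had 2, 33 and 19 reads over the 5 libraries of MEF, MGT and MΔGΔT, Krt15 had 37, 4 and 2, and Krt23 had 0, 60 and 4.

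Summed over Krt7, Krt18 and Krt19, the level was 1.94 ± 0.32 RPKM in MEF, 4.36 ± 0.395 in MGT and 3.47 ± 0.272 in MΔGΔT. Vim, which encodes vimentin, the intermediate filament protein of mesenchymal cells, exceeded this sum 289 to 436 times in MEF, 266 to 334 times in MGT and 497 to 561 times in MΔGΔT. It rose by 0.88 ± 0.0303 in MGT and 1.69 ± 0.0308 in MΔGΔT. Of 10 tested intermediate filament genes outside the keratins, 7 rose and 2 fell in MGT, where 61.2% of all features were called. In MΔGΔT 5 rose and 4 fell, where 72.3% were called. The rise of Lmna in MGT (0.09 ± 0.0359, adjusted p = 0.0329), named after its values were seen, was lost in 10 of 22 alternative settings. Des, encoding the muscle filament protein desmin, rose by 5.02 ± 0.0555 and 5.64 ± 0.055, and Nes, encoding nestin, by 2.68 and 4.48. Gfap, the astrocyte filament gene, fell by 3.45 and by 2.99.

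**Figure D5:**
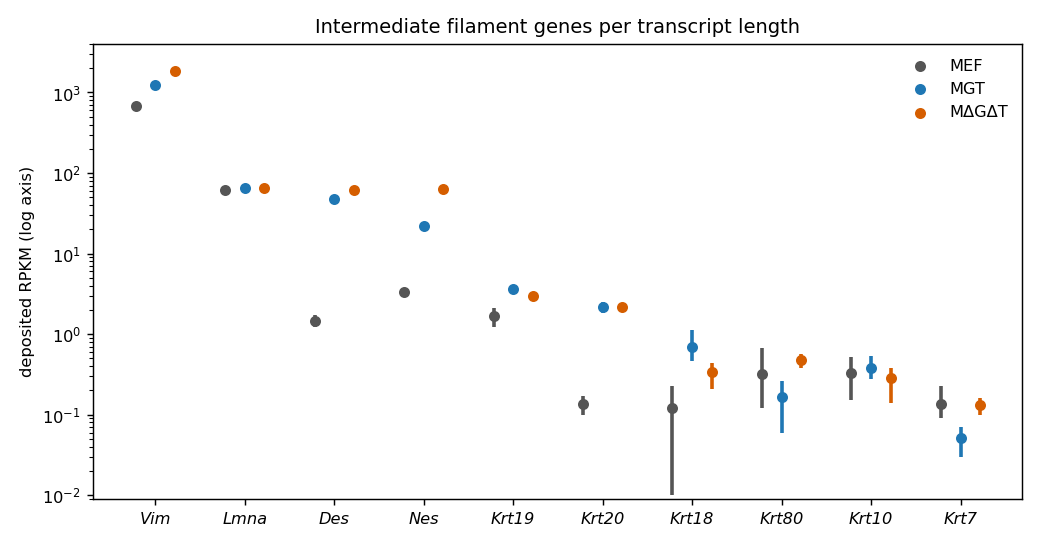
Deposited RPKM of intermediate filament genes on a log axis, with points for the group means and lines from the lowest to the highest of 5 libraries. The lowest Krt18 library in MEF is listed at 0 and drawn at 0.01. Vim lies near 1000 RPKM in every group (means 670, 1248 and 1834), and Krt19 near 2 to 4 RPKM is the highest of the keratins shown.

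The list of keratin-anchoring genes holds desmosome genes, hemidesmosome genes such as Itga6 and other keratin-binding genes. Of 16 tested, 11 rose and 1 fell in MGT, where 30.9% of all features rose and 30.3% fell. In MΔGΔT 13 rose and 1 fell, beside 36.2% and 36.1% of all features. The median log2 fold change of the list was 0.92 and 1.54. Against MGT, 9 rose and 2 fell in MΔGΔT, beside 30.4% and 27.8%. Dsg2 and Dsc3, named after their values were seen, had 0 to 2 and 0 to 5 reads per MEF library. They passed the count filter only through the transduced groups. A fall against MEF could hardly be called for them, so the counts against MEF are partly set by the filter. Dsp, encoding desmoplakin, which ties intermediate filaments to the desmosome, had means of 3.99 ± 1.02 CPM in MEF, 663 ± 34 in MGT and 455 ± 17.3 in MΔGΔT. It rose by 7.37 ± 0.0707 (adjusted p = 2.1e-40) and 6.82 ± 0.0713 (adjusted p = 1.1e-39). Jup, encoding plakoglobin, went from 123 ± 5.87 to 300 ± 5.67 and 519 ± 12.7 CPM, and Pkp2, a plakophilin of heart desmosomes, from 10.7 ± 0.764 to 19.7 ± 1.33 and 40.8 ± 2.81 CPM. Perp, a desmosomal membrane protein, rose by 1.19 and 1.69. Plec, encoding the linker plectin, rose by 0.55 in MΔGΔT and had a value of 0.08 in MGT that was not called (adjusted p = 0.0777). The gene that fell was Ppl, encoding periplakin (-1.54 and -2.01), named after its value was seen. Heart muscle cells also use Dsp, Jup, Pkp2 and Des. Summed over 10 cardiac muscle markers, the level was 7.39 to 8.15 CPM in MEF, 1372 to 1558 in MGT and 11638 to 13083 in MΔGΔT, and its part in these rises was not tested.

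Of 34 epithelial junction and identity genes listed, 11 were found in the table and 9 could be tested. In MGT 6 rose and none fell, with 3 not called, and in MΔGΔT 6 rose, 1 fell and 2 were not called. The shares of all features that rose were 30.9% and 36.2%. Grhl3, a grainyhead factor of surface epithelia, had 0 to 2 reads per MEF library and 14 to 31 and 7 to 17 in MGT and MΔGΔT. Trp63, named after its values were seen, had 2 to 6 reads per MEF library. Both passed the count filter only through the transduced groups. A fall could hardly be called for them, so the counts of this list are partly set by the filter. Spint2, a serine protease inhibitor of epithelia, had means of 3.69 ± 0.585, 24.8 ± 1.26 and 23.5 ± 0.986 CPM. Cdh3, P-cadherin, rose by 0.58 in MGT and fell by 0.96 in MΔGΔT, and its means were 115, 172 and 59.3 CPM. Cdh1, E-cadherin, chosen after its values were seen, was below the filter, with 37 reads over the 5 MEF libraries and 3 in each transduced group. Of 7 tested factors of the epithelial to mesenchymal transition, 6 fell and 1 rose in both transduced groups, where 30.3% and 36.1% of all features fell. Snai2 fell by 0.51 and by 1.27, Twist1 by 0.60 and by 1.49, and Zeb1 was the one that rose, by 0.22 and 0.65.

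Markers of other cells that an embryonic fibroblast culture can hold moved with the groups as well. Of 12 fibroblast markers, 12 fell in MGT and 11 fell in MΔGΔT, beside 30.3% and 36.1% of all features. Their summed level was 58568 to 67290 CPM in MEF, 28879 to 30412 in MGT and 20334 to 22175 in MΔGΔT. All 9 tested macrophage markers fell in both, beside the same shares of all features, with sums of 2093 to 2773, 157 to 293 and 201 to 302 CPM. The 6 endothelial markers in the table summed to 30.5 to 37.4, 35.7 to 43.4 and 22.4 to 30.7 CPM. Of 5 tested, 1 rose and 2 fell in MGT, beside 30.9% and 30.3% of all features. In MΔGΔT 1 rose and 3 fell, beside 36.2% and 36.1%. The sums hide opposite changes, since Tek fell by 2.21 and by 4.66 while Kdr rose by 1.21 and 0.89. Of the genes of these lists found in the table, none was at 0 throughout a group. Only 9 of 10 macrophage and 6 of 10 endothelial markers listed were found. Lrrn4 and Upk3b were lower in both transduced groups, as were the macrophage and fibroblast sums. Among MEF libraries the macrophage sum ranked replicates 2, 3, 4, 5, 1 and the fibroblast sum 3, 2, 5, 4, 1. Lrrn4 ranked them 4, 5, 1, 2, 3 and Upk3b 4, 5, 2, 1, 3. The part of these cells in the result was not tested.

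The genes most like each member were found by Pearson's r of log2 CPM over the 15 libraries, a measure that the differences between 3 groups dominate. For Msln they were Arhgef7, Ctgf and Lmcd1 (r = 0.996 each), and Ctgf encodes a matricellular growth factor. For Lrrn4 they were Kera (0.993), the corneal matrix proteoglycan keratocan, Dock2 (0.99), a leukocyte exchange factor, and Kcp (0.99). For Upk3b they were Cxcl14 (0.971), Zfp710 (0.967) and Ddit3 (0.966), and for Wt1 Adora2b (0.927), Tro (0.927) and Abhd17c (0.921). The keratins had Slc26a7 (0.926) for Krt7, Cipc (0.936) for Krt18 and Serpina3f (0.976) for Krt19 at the head. By deviations from the group means, which leave the group differences out, the first genes were others: BC068281 (0.853) for Msln, Wnt4 (0.876) for Lrrn4, Prkd1 (0.851) for Upk3b, Zdhhc17 (0.893) for Wt1, Chst3 (0.852) for Krt7, Pygm (0.836) for Krt18 and P2rx4 (0.895) for Krt19. These are the highest of 13328 values for each gene and carry no test.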

How the data were processed

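Per the labels' protocols, 15 directional libraries were made from total RNA after removal of ribosomal RNA. The authors deposited whole-number counts and RPKM values for each of 14091 gene symbols, per the file headers. The submitters' processing notes name the build mm10. Aligner and counter were not given in the sources used here. For the deposited counts edgeR 4.0.16 was used in R 4.3.3. After filterByExpr by group, 13328 features remained, and library sizes were TMM-adjusted. A gene with few reads could pass this filter only through a group where it was high, so calls lower there could hardly arise. A robust quasi-likelihood fit to all 15 libraries (group only, 12 residual degrees of freedom, BCV 4.86%) was used for the 3 pairs of groups, with Benjamini-Hochberg adjustment and a threshold of 0.05. It was tested on simulated data. "Rose" and "fell" are used of features under the threshold. CPM was computed from the counts, and log2 CPM for likeness had a prior count of 2. RPKM, as deposited, served for levels, ratios and sums between genes. The lengths and reads used for it are not known here, and it need not rest on the listed counts. For Synm in MΔGΔT, named after its values were seen, 0 to 6 counts per library stood beside 0.84 to 1.02 RPKM. The 21 features with a date for a symbol (0.258% of counts) were kept in the fit and not named. Positions came from GENCODE M21 and promoters from RefSeq GRCm38.p6.

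Members and lists were chosen with earlier results of these data known. Genes were named by rule: the members, the transduced factors, up to 4 genes per list and pair of groups by adjusted p, and known partners of member products. Alternatives were other scalings, no count filter, DESeq2 1.42.0, 2 groups per fit, a replicate block, log2(RPKM + 0.1), and leaving out each library.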

Additional observations from a re-analysis of the deposited data

How the results depend on the processing

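The companion-list counts in the 2 comparisons with MEF stayed within 1.5 times their main value under every alternative run. The direction counts did as well, but that bound is too wide to detect a sign change of a single member. By value, no member's log2 fold change against MEF changed sign in any refit of the counts that kept it. Scaling by library totals in place of TMM moved the median of all features by -0.10 (MΔGΔT against MEF) and -0.17 (MΔGΔT against MGT) on the log2 scale, and the RPKM scale by -0.23 and -0.25. With library totals, 2436 features rose and 6200 fell in MΔGΔT against MGT (4056 and 3706 with TMM), 5181 and 3276 in MGT against MEF (4120 and 4040), and 3967 and 5798 in MΔGΔT against MEF (4819 and 4818). With only the 2 groups compared, 3 members were lower in MΔGΔT than in MGT rather than 5, because Lrrn4 and Upk3b fell under the count filter of that fit. On log2(RPKM + 0.1), Krt7 in MΔGΔT against MEF was -0.0014. Leaving out single libraries gave -0.32 to 0.12 for Upk3b and -0.04 to 0.01 for Krt19, both for MΔGΔT against MGT. Replicate numbers did not pair the libraries (r of -0.0918 to 0.0668 over 15 same-number pairs, 3 of 15 libraries matching best with their own number), and with a replicate block 4078 features rose and 4001 fell in MGT against MEF, 4794 and 4799 in MΔGΔT against MEF, and 4005 and 3677 in MΔGΔT against MGT. Of the companion genes called, 109 of 113, 121 of 126 and 89 of 96 kept their call in all alternatives. Depth limits Lrrn4, Krt18 and Krt7, which had few reads per library.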
